A study of Mus musculus with 7 samples.

Results

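The 44 genes described here are a fixed set of cell cycle and DNA replication genes, 19 that act in late G1 or S phase and 25 that act in G2 or mitosis. They were listed by name, with earlier results of these data known, out of 55423 features in the count table. All 44 had at least 5 counts in every tumour and were among the 24433 features tested. RNA was sequenced from whole skin tumours, labelled cutaneous squamous cell carcinoma, of mice in which a tamoxifen-inducible Cre driven by the Ivl (involucrin) promoter had switched on BRAFV600E in differentiation-committed keratinocytes. In the Ivl:BRAFV600E group, 3 tumours were analysed, called A, B and C. In the Ivl:BRAFV600E-SOX2LSL group, 3 tumours were analysed, called D, E and F, in which the same Cre also released SOX2 linked to eGFP from the Rosa26 locus. The mice of both groups were on a C57BL/6J background, carried the oncogenic Braf allele in 1 copy and received topical tamoxifen at 7 to 10 weeks of age, and tumours were taken at clinical endpoint. Tumours A, B and F came from female mice and C, D and E from male mice, and the mice bearing A and B also carried a tdRFP reporter at Rosa26. Every tumour of the SOX2LSL group was collected sooner after induction than every Ivl:BRAFV600E tumour, so genotype and time since induction cannot be told apart.

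The cell cycle runs from a G1 decision, in which D-type and E-type cyclins with their kinases inactivate RB and free the E2F factors, to S phase, in which the MCM helicase is loaded and fired, and then to mitosis. E2F1 drives genes of the replication machinery, E2F7 and E2F8 repress them later in the cycle, and MYBL2 and FOXM1 drive the genes of G2 and mitosis. In skin these transcripts come chiefly from the dividing basal layer, and in tumours their level is commonly read as a sign of how many cells are cycling. In whole-tumour RNA, fewer cells of a type and less RNA per cell cannot be told apart.

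Short promoter stretches of 4 of the genes are shown to give the DNA elements through which this timing is known to work. Each is the 180 bases before the RefSeq start on GRCm38.p6, read 5′ to 3′ on the minus strand, which carries all 4 genes. None of the 4 stretches holds an annotated exon. Capitals mark matches on either strand to an E2F element (TTTCCCGC, TTTCGCGC, TTTGCCGC or TTTGGCGC), to the CHR element of mitotic genes (TTTGAA) or to a CCAAT box (CCAAT).
Mcm6 chr1:128359706-128359885: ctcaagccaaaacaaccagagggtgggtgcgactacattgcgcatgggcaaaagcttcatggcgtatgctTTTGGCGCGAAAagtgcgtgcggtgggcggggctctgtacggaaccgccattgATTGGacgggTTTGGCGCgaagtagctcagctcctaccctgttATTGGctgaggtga
E2f8 chr7:48881597-48881776: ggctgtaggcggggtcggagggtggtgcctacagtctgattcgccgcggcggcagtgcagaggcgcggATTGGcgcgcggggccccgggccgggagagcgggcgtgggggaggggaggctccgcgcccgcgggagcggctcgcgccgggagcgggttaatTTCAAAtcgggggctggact
Mki67 chr7:135716380-135716559: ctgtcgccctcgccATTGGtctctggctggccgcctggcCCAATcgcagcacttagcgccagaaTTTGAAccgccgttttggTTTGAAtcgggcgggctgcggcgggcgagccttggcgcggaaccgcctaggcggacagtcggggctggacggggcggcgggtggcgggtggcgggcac
Top2a chr11:99024190-99024369: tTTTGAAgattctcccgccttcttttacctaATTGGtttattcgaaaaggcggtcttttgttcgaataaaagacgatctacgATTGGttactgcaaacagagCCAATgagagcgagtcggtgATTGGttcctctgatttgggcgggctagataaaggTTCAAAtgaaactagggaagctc
Mcm6, a replication helicase subunit, has 3 E2F matches here, and 2 of them overlap on opposite strands in 1 run of capitals. E2f8 has 1 CHR match beside its start, and the mitotic genes Mki67 and Top2a have 2 each. Across the 250 bases before the start, an E2F match was present in 5 of the 16 S-phase genes with a sequence, in 1 of 19 mitotic genes and in 1.91% of the 27025 genes of the promoter table. A CHR match was present in 2 of 16 S-phase genes, 7 of 19 mitotic genes and 16.3% of all genes, and a CCAAT match in 10, 17 and 34.5% respectively. A match to these letters is a description of the sequence and not a measured binding site.

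None of the 44 genes passed an adjusted p of 0.05 between the genotypes in edgeR's quasi-likelihood test, against 3.90% of all features tested (954, of which 2.39% of the tested features were higher and 1.51% lower in the SOX2LSL tumours). At an unadjusted p under 0.05 the count was 6 of 44, or 3 S-phase and 3 mitotic genes, against 25.7% of all features. DESeq2 called 3 of the 44, all S-phase genes, against a background of 18.2%, and limma voom called 1 against 8.77%. The median log2 fold change was 0.21 over the S-phase genes and 0.22 over the mitotic genes, or 1.16-fold in each list, beside 0.04 over all features. The estimate was above 0 for 39 of the 44 genes. Its 95% interval lay within a 2-fold difference either way for 40 of 44, the exceptions being E2f8, Mybl2, Gins2 and Kif23. A missed threshold does not show that the groups had the same level. For the 44 genes the median half-width of the interval was 0.45 on the log2 scale, beside 0.95 over all features.

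**Figure D1:**
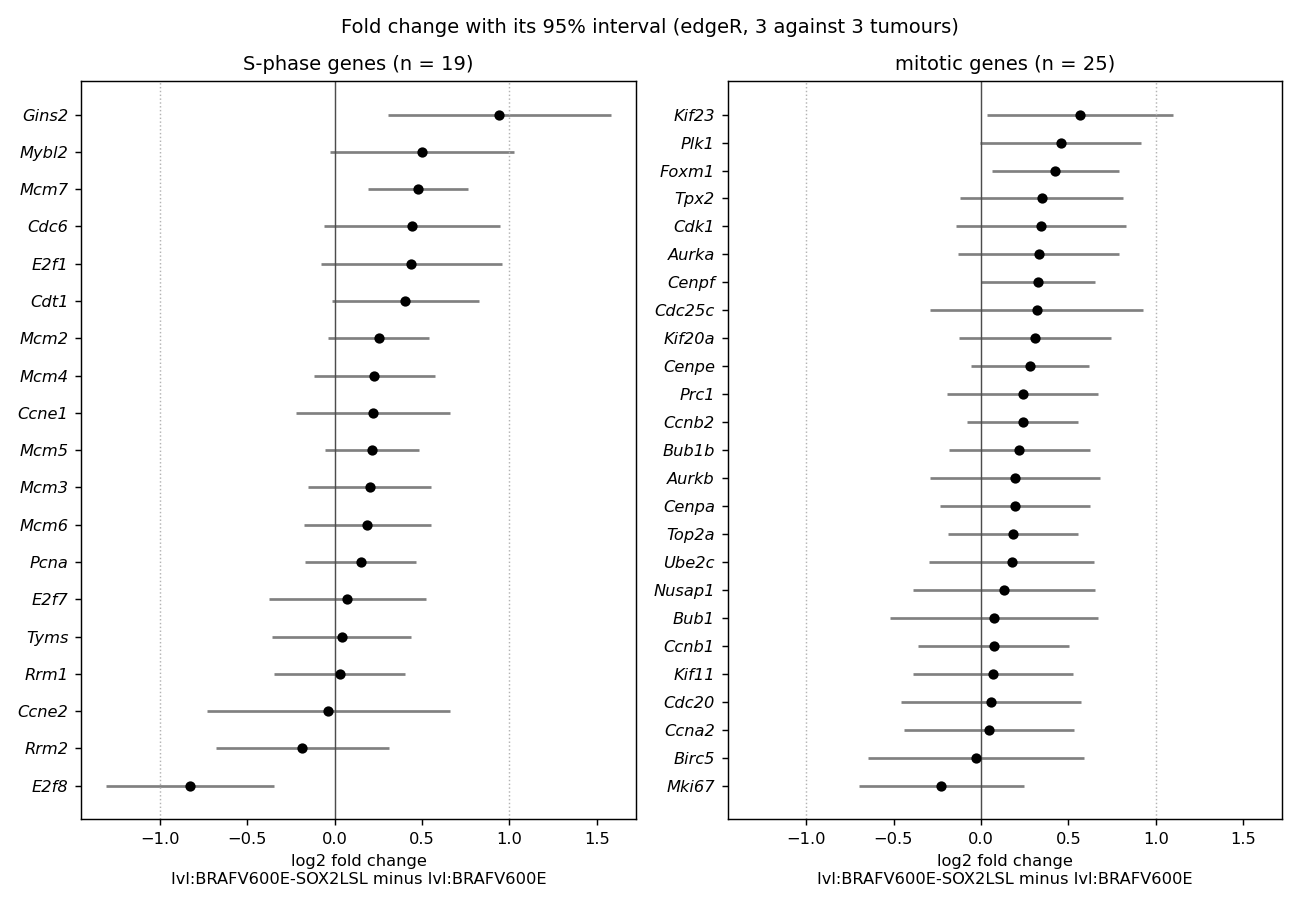
Log2 fold change of each S-phase gene (left) and mitotic gene (right), Ivl:BRAFV600E-SOX2LSL minus Ivl:BRAFV600E, from edgeR with 3 tumours a group; points are estimates, bars 95% intervals and dotted lines a 2-fold difference. Most bars span 0 and stay between the dotted lines, and the interval of E2f8 lies below 0 while those of Mcm7, Gins2, Foxm1, Kif23 and Cenpf lie above it.

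These values depend on how libraries are scaled. In CPM, read pairs scaled to a common library total, after TMM, which scales libraries so that most genes sit at equal levels, the 44 genes summed to 2278, 2003 and 1582 CPM in tumours A, B and C and to 2032, 2176 and 2042 CPM in D, E and F. The ranges overlap, and tumours A and C were the highest and the lowest of all 6. As a share of all raw counts the same genes took 0.214%, 0.165% and 0.141% in A, B and C and 0.255%, 0.233% and 0.219% in D, E and F, which do not overlap. The TMM factors were 0.824 to 0.941 in the Ivl:BRAFV600E tumours and 1.07 to 1.26 in the SOX2LSL tumours. Scaled by library size alone, a setting added after the values were seen, the median over all features was 0.39 in place of 0.04, and 85.9% of called features were higher in the SOX2LSL tumours in place of 61.3%. The 44 genes had a median of 0.56 under that scaling and 0.22 under TMM, which is 0.17 above the median of all features in both. Library size alone also turned the estimate of Mki67 from -0.23 to 0.11 and called 3 of the 44 genes (Mcm7, Foxm1 and Cenpf, all higher). Of all 24433 features it called 1695 higher and 279 lower, so the share among the 44 genes was not above that of all features. All further values are after TMM.

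Taken as a sum, markers of differentiated keratinocytes were lower in the SOX2LSL libraries. The summed level of 7 suprabasal keratinocyte markers was 67244 to 88605 CPM in the Ivl:BRAFV600E tumours and 2119 to 22182 CPM in the SOX2LSL tumours. Krt1 and Krt10 made up most of each sum, and 2 of the 7 markers were called, both lower. The 7 basal keratinocyte markers, the layer in which epidermal cells divide, summed to 17768 to 35858 CPM and 12727 to 27757 CPM, and none was called. Of 10 skeletal muscle markers 9 were tested and 7 were called, all higher. Their summed levels were 1.81 to 3.94 CPM against 195 to 904 CPM, and Myh4 had no count in tumours A to C. Fibroblast markers summed to 759 to 5080 CPM against 3936 to 8281 CPM, and macrophage markers to 50.7 to 99.0 CPM against 136 to 413 CPM, with 1 of 6 called higher. Among 5 hair matrix markers tested 1 was called, lower, and none was called among the endothelial, T cell, B and plasma cell, neutrophil, melanocyte and adipocyte markers, the last of which summed to 21.7 CPM in tumour D and at most 0.570 CPM in the others. Their part in the values of the cell cycle genes was not tested. The transgene followed the labels. EGFP had no count in A, B or C, which allows up to 0.102 to 0.143 CPM (3 counts), and lay at 110 to 139 CPM in D, E and F, and Sox2 was at 0.238 to 0.716 CPM against 155 to 182 CPM. Each library held 23565432 to 31152826 counts on features, and the lowest count of any of the 44 genes in any tumour was 51.

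Among the S-phase genes, the E2F factors had different values from one another. E2f8, a repressor of E2F targets on chromosome 7 (GRCm38, 48866429 to 48881596, minus strand), was at 67.7, 60.7 and 48.5 CPM in A, B and C and at 25.5, 34.1 and 40.1 CPM in D, E and F. All 3 SOX2LSL tumours lay below all 3 Ivl:BRAFV600E tumours, with means of 58.9 ± 9.69 and 33.3 ± 7.33 CPM (SD, n = 3 each). The log2 difference was -0.83 (SE 0.20, 95% interval -1.30 to -0.35), with an edgeR adjusted p of 0.0682. The adjusted p was 0.00747 in DESeq2, 0.0391 in limma voom and 0.0454 in edgeR with no filter on low counts, so the call rests on the method. Its closest relative E2f7 was at 28.7 to 35.3 CPM in the Ivl:BRAFV600E tumours and 26.6 to 41.9 CPM in the others, with a log2 difference of 0.07 (interval -0.38 to 0.52). The E2f8 to E2f7 ratio, which no scaling of a library can change, was 1.92, 2.11 and 1.55 in A, B and C and 0.962, 0.815 and 1.26 in D, E and F. This ratio was chosen after the values were seen and is given with no test.

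E2f1, the activator, was at 6.99, 4.48 and 6.32 CPM in A, B and C and at 8.20, 8.52 and 7.44 CPM in D, E and F. The groups did not overlap, yet the log2 difference of 0.44 (interval -0.08 to 0.96) had an edgeR adjusted p of 0.256. Mybl2, which with FOXM1 carries the programme from S phase into mitosis, was at 16.7, 15.0 and 11.2 CPM against 15.8, 24.4 and 20.5 CPM. Its groups overlapped, and its difference was 0.50 (interval -0.03 to 1.03, edgeR adjusted p 0.214). Ccne1, which encodes the kinase-activating cyclin E1, was at 9.52, 8.41 and 9.46 CPM against 12.6, 10.2 and 8.99 CPM, a difference of 0.22 (interval -0.22 to 0.66). The second E-type cyclin gene, Ccne2, differed by -0.04 (interval -0.73 to 0.66). Levels per kilobase of annotated exon set genes side by side only roughly. The length merges all annotated exons and can exceed that of the transcript present. On that scale Ccne1 and Ccne2 lay at 3.43 and 3.01 CPM in the Ivl:BRAFV600E tumours and 3.99 and 2.94 CPM in the SOX2LSL tumours.

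The origin licensing and helicase genes all had estimates above 0. Mcm7, a subunit of the MCM2-7 ring that unwinds DNA, on chromosome 5 (138164583 to 138172422, minus strand), was at 48.1, 43.7 and 39.9 CPM in A, B and C and at 62.6, 62.8 and 57.8 CPM in D, E and F. The 2 groups stood apart by more than the spread within either, with means of 43.9 ± 4.13 and 61.1 ± 2.81 CPM. Its log2 difference was 0.48 (SE 0.12, interval 0.19 to 0.76), with an adjusted p of 0.0717 in edgeR, 0.0167 in DESeq2 and 0.052 in limma voom. The other MCM genes differed by 0.19 (Mcm6) to 0.25 (Mcm2), each with an interval that held 0. Mcm2 was at 44.8, 37.5 and 37.3 CPM against 47.4, 48.5 and 46.7 CPM (edgeR adjusted p 0.244), with no overlap between groups. Taken as a ratio to the mean of Mcm2 to Mcm6 in the same library, Mcm7 was at 0.897, 0.993 and 0.944 in A, B and C and at 1.14, 1.13 and 1.11 in D, E and F, a ratio chosen after the values were seen. Over all 6 tumours the 6 MCM genes spanned a mean of 6.28 (Mcm2) to 15.5 (Mcm4) CPM per kilobase of exon. The merged exon lengths were 6.96 kb for Mcm2 and 3.59 kb for Mcm4, so this span reflects length as well as counts.

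Gins2, part of the GINS complex that joins MCM2-7 in the active helicase, had the largest estimate of the 44. It was at 4.13, 2.36 and 3.14 CPM in A, B and C and at 7.25, 5.47 and 5.81 CPM in D, E and F, with no overlap. The log2 difference was 0.94 (SE 0.27, interval 0.31 to 1.58), with an adjusted p of 0.0936 in edgeR and 0.0193 in DESeq2. Of its annotated exon bases 67.3% also lie in exons of Gse1 on the opposite strand, and whether counting used strand is not given in the sources used here, so its value is uncertain. Cdt1, which loads the MCM ring, was at 18.5, 16.2 and 15.9 CPM against 27.5, 19.6 and 19.8 CPM (difference 0.40, edgeR adjusted p 0.21), with tumour D the highest. Cdc6, the other loading factor, differed by 0.44 (interval -0.06 to 0.95).

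Of the genes of fork processivity and nucleotide supply, none had an interval that left out 0. Pcna, the sliding clamp of the replicative polymerases, was at 74.8, 71.1 and 57.4 CPM in A, B and C and at 78.3, 75.1 and 72.2 CPM in D, E and F. Its difference was 0.15 (interval -0.17 to 0.47, edgeR adjusted p 0.519), and tumour C was apart from the other 5. The ribonucleotide reductase genes differed by 0.03 for Rrm1 (interval -0.35 to 0.40) and -0.18 for Rrm2 (interval -0.68 to 0.31). Tyms, which makes thymidylate, differed by 0.04 (interval -0.36 to 0.44).

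Of the mitotic genes, the proliferation marker Mki67 had the most counts and the lowest estimate. Per kilobase of exon it lay at 41.5 CPM in the Ivl:BRAFV600E group and 35.4 CPM in the SOX2LSL group, beside 36.0 and 37.5 CPM for Cdc20, an activator of the anaphase-promoting complex. Mki67 (chromosome 7, 135689784 to 135716361, minus strand) was at 505, 425 and 323 CPM in A, B and C and at 302, 395 and 373 CPM in D, E and F. The groups overlapped, and the log2 difference was -0.23 (SE 0.20, interval -0.70 to 0.24), with an edgeR adjusted p of 0.508. Top2a, which untangles sister chromatids, was at 196, 174 and 135 CPM against 193, 195 and 186 CPM, a difference of 0.18 (interval -0.19 to 0.56). The Mki67 to Top2a ratio within a library was 2.58, 2.44 and 2.39 in A, B and C and 1.56, 2.03 and 2.01 in D, E and F. Those ratios do not overlap between groups. They were also chosen after the values were seen and have no test.

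Foxm1, the transcription factor of the G2 and mitotic programme on chromosome 6 (128362967 to 128376146, plus strand), was at 26.1, 23.9 and 19.0 CPM in A, B and C and at 29.4, 32.3 and 30.8 CPM in D, E and F. The groups did not overlap, and the log2 difference was 0.43 (SE 0.15, interval 0.06 to 0.79), with an edgeR adjusted p of 0.145 and 0.11 in DESeq2. It had the smallest p of the 25 mitotic genes. Cdk1, the mitotic cyclin-dependent kinase, was at 26.8, 27.1 and 17.8 CPM against 35.7, 28.0 and 27.1 CPM, a difference of 0.34 (interval -0.14 to 0.83) with F barely above B. Plk1, which acts on centrosomes and the spindle, was at 25.5, 22.6 and 15.7 CPM against 28.5, 27.7 and 31.5 CPM (difference 0.46, edgeR adjusted p 0.198), with no overlap. Aurka and Aurkb, the Aurora kinases of spindle poles and centromeres, differed by 0.33 (interval -0.13 to 0.79) and 0.20 (interval -0.29 to 0.68).

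Of the cyclins that partner CDK1, Ccnb1, for cyclin B1, was at 56.7, 61.2 and 39.2 CPM in A, B and C and at 56.0, 59.1 and 50.1 CPM in D, E and F. Its difference was 0.07 (interval -0.36 to 0.50), and it turned to -0.03 under upper-quartile scaling and to -0.10 without tumour C. Ccnb2 differed by 0.24 and Ccna2, for cyclin A2, by 0.05, both with intervals that held 0. Per kilobase of exon Ccnb1 was at 12.4 and Ccnb2 at 12.5 CPM in the Ivl:BRAFV600E tumours, on merged lengths of 4.22 and 1.53 kb. Cdc25c, the phosphatase that activates CDK1, differed by 0.32 (interval -0.29 to 0.93).

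Among genes of the spindle and kinetochore, Kif23, a motor of the central spindle, was at 23.8, 18.1 and 17.6 CPM in A, B and C and at 38.5, 23.8 and 25.8 CPM in D, E and F. The groups met at 23.8 CPM, and the difference of 0.57 (interval 0.03 to 1.10, edgeR adjusted p 0.174) was 0.32 without tumour D. Cenpf, a kinetochore protein, was at 58.2, 56.2 and 45.6 CPM against 62.2, 72.0 and 66.3 CPM (difference 0.33, edgeR adjusted p 0.192), with no overlap. Cenpe, the kinetochore motor, was at 50.0, 43.8 and 37.1 CPM against 56.2, 53.7 and 49.3 CPM (difference 0.28, edgeR adjusted p 0.263), overlapping only between A and F. Of the rest, Tpx2, Kif20a, Prc1, Bub1b, Cenpa, Ube2c, Nusap1, Bub1, Kif11, Cdc20 and Birc5 had log2 differences from -0.03 (Birc5) to 0.35 (Tpx2), and each interval held 0. Of the exon bases of Ube2c 22.8% also lie in Tnnc2, a muscle gene on the opposite strand. Tnnc2 did not reach 5 counts in any tumour, although the skeletal muscle markers summed to 195 to 904 CPM in the SOX2LSL tumours. For Kif20a 29.3% of the exon bases lie in Cdc23. Whether reads over shared exon bases were lost from either gene was not tested. In all, 15 of the 44 genes share some exon bases with another gene.

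**Figure D2:**
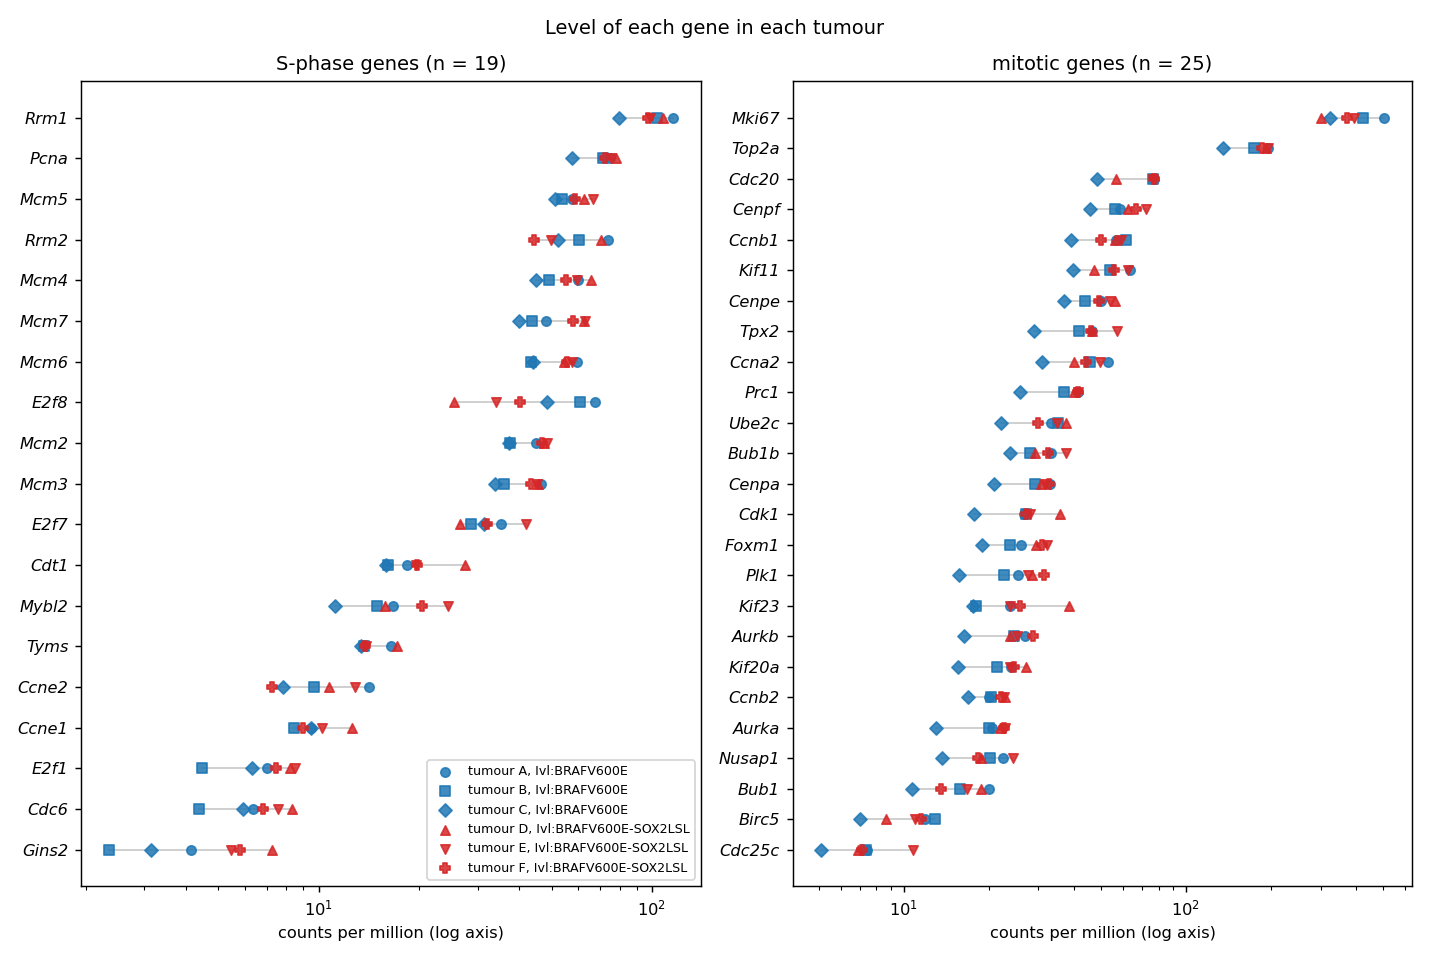
Level of each S-phase gene (left) and mitotic gene (right) in each of the 6 tumours, in CPM on a log axis; blue symbols are Ivl:BRAFV600E tumours A, B and C, red symbols Ivl:BRAFV600E-SOX2LSL tumours D, E and F, and grey lines span the 6 values. The blue diamond of tumour C is leftmost in 24 of the 25 mitotic rows, and the red symbols of E2f8 lie left of its blue ones.

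The groups did not overlap in 14 of the 44 genes. In 13 (29.5%) every SOX2LSL tumour was above every Ivl:BRAFV600E tumour, as in 18.2% of all features tested, and in 1, E2f8, every one was below, as in 16.0% of all. The 13 were the S-phase genes E2f1, Cdc6, Cdt1, Mcm2, Mcm5, Mcm7 and Gins2 and the mitotic genes Foxm1, Cdk1, Ccnb2, Plk1, Aurka and Cenpf. The number was 12 with DESeq2's size factors, 8 with upper-quartile scaling and 32 with library size alone, and E2f8 stayed the lower one at each. The shares over all features were computed after TMM only, so these numbers cannot be set against 18.2%. Library size alone also moved the median log2 fold change of all features from 0.04 to 0.39.

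The Ivl:BRAFV600E tumours differed among themselves in most of the genes. Tumour A had the highest value of its group in all 19 S-phase genes and in 20 of 25 mitotic genes, and tumour C the lowest of its group in 13 of 19 and 25 of 25. Tumour C was also the lowest of all 6 tumours in 24 mitotic genes, with Mki67, lowest in D, as the exception. The median ratio of A to C was 1.30 over the S-phase genes and 1.56 over the mitotic genes, beside a genotype difference of 1.16-fold in both. A and C were chosen for this ratio after the values were seen. A ratio of single tumours is also a different measure from a difference between groups. The highest-to-lowest range within the Ivl:BRAFV600E group exceeded the genotype fold change in 13 of 19 S-phase and 24 of 25 mitotic genes. The matching shares over all features, for this range and for the lowest tumour, were not computed. Within the SOX2LSL group the tumours were closer, with a median range of 1.23-fold in each list, beside 1.38-fold (S-phase) and 1.57-fold (mitotic) in the Ivl:BRAFV600E group. Without tumour C the median log2 difference was 0.06 over the mitotic genes and 0.14 over the S-phase genes, and the number of genes with an estimate above 0 went from 39 to 30. Without tumour A the medians were both 0.34.

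Averaged over genes as log2 CPM, the mitotic level was 5.20, 5.08 and 4.60 in A, B and C and 5.16, 5.26 and 5.16 in D, E and F. The S-phase level was 4.83, 4.52 and 4.48 against 4.86, 4.85 and 4.72. Tumour B stood near A in the mitotic genes and near C in the S-phase genes. The mitotic minus S-phase difference was thus 0.37, 0.56 and 0.12 in A, B and C and 0.29, 0.41 and 0.44 in D, E and F, with group means of 0.35 ± 0.22 and 0.38 ± 0.08 (SD, n = 3 each). Tumour C was collected last after induction and was the only one of its group from a male and without the tdRFP reporter. It had the highest summed level of fibroblast markers in its group, at 5080 CPM against 2117 (A) and 759 (B). Its hair matrix (176 CPM) and macrophage (99.0 CPM) markers were also the highest there. Its suprabasal markers, at 81631 CPM, lay between those of A and B. Tumour D had more fibroblast marker signal, at 8281 CPM, with a mitotic mean of 5.16. The part of any of these in the low mitotic values of C was not tested.

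**Figure D3:**
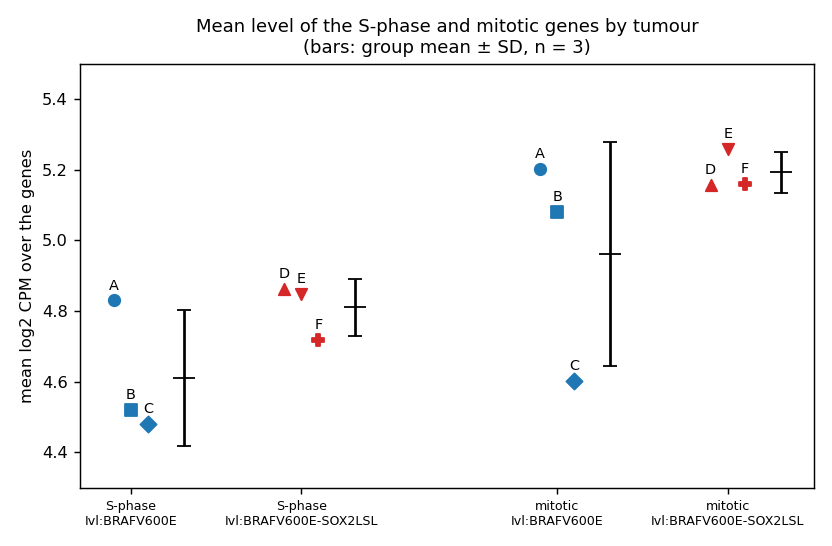
Mean log2 CPM over the 19 S-phase genes and over the 25 mitotic genes in each tumour (letters), with the group mean and SD of 3 tumours as bars. Tumour C stands at 4.60 in the mitotic genes, below the other 5 tumours at 5.08 to 5.26, and tumours D, E and F lie closer together than A, B and C.

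Of the 166 genes in the wider cell cycle lists edgeR called 3, against 3.90% of all features. At an unadjusted p under 0.05 the count was 30, against 25.7%. Both are smaller shares than over all features. Of 56 other replication genes edgeR called none, against 3.90% of all features, and 8 had an unadjusted p under 0.05, against 25.7%. DESeq2 called 4 of them (Timeless, Pold1, Dnmt1 and Pola2, all higher), against its 18.2% of all features, and limma voom 1 (Timeless), against 8.77%. The median log2 difference was 0.19, and Timeless, a fork protection gene, came nearest in edgeR with an adjusted p of 0.057. Of 78 other mitotic genes edgeR called 1 (13 at an unadjusted p under 0.05, median 0.16), limma voom the same 1 and DESeq2 5, all higher (Ccnf, Gtse1, Kifc1, Cdca5 and Kif2c). Of 25 regulators of G1 edgeR called 2, both higher (7 at an unadjusted p under 0.05, median 0.16), limma voom the same 2, and DESeq2 those and Lin9, a subunit of the DREAM and MuvB complexes, which was lower (DESeq2 adjusted p 0.0133). Of 7 CDK inhibitors edgeR called none (2 at an unadjusted p under 0.05), DESeq2 called Cdkn1c and limma voom Cdkn2d, both higher. Cdkn1c was at 0.477, 1.29 and 1.28 CPM in A, B and C and at 2.21, 20.2 and 3.97 CPM in D, E and F. Tumour E was thus far above the rest. Its log2 difference of 3.12 (edgeR adjusted p 0.0921) was as low as 1.61 with a tumour left out. Genes that DESeq2 or limma voom alone called were named after their values were seen. For the other mitotic genes, G1 regulators and CDK inhibitors too, the shares over all features were 3.90% in edgeR and 25.7% at an unadjusted p under 0.05. They were 18.2% in DESeq2 and 8.77% in limma voom. The G1 regulators lay above both edgeR shares and the other mitotic genes below both.

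The called genes were 2 D-type cyclins and cyclin F. Ccnd2, which encodes a D-type cyclin that switches on CDK4 and CDK6 in G1, was at 48.4, 27.9 and 57.2 CPM in A, B and C and at 251, 126 and 152 CPM in D, E and F. It rose 3.96-fold (95% interval 2.26 to 6.95, edgeR adjusted p 0.0322), with every SOX2LSL tumour above every other. Ccnd3, for cyclin D3, rose 1.54-fold, from 24.9, 26.6 and 25.7 CPM to 36.1, 42.7 and 40.1 CPM (interval 1.26 to 1.89, edgeR adjusted p 0.043). Ccnf, for cyclin F, a ubiquitin ligase subunit of S and G2 phase, rose 1.83-fold, from 15.1, 15.7 and 12.2 CPM to 27.2, 24.7 and 26.7 CPM (interval 1.44 to 2.34, edgeR adjusted p 0.0308). The calls of all 3 were lost when tumour A, B, C, E or F was left out and when sex was a covariate, with edgeR adjusted p up to 0.141 for Ccnd2, 0.175 for Ccnd3 and 0.129 for Ccnf, and that of Ccnd3 also under upper-quartile scaling (0.0702). Their log2 differences stayed between 1.64 and 2.21, 0.57 and 0.69, and 0.77 and 0.94 in those fits with a tumour left out.

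Ccnd1, for cyclin D1, was at 127, 101 and 99.6 CPM in A, B and C and at 264, 79.2 and 69.2 CPM in D, E and F. Tumour D was above all the others and E and F below them, and the log2 difference of 0.33 (interval -0.83 to 1.49) was -0.56 without tumour D. Cdk4, a kinase partner of the D-type cyclins, was at 84.1, 92.2 and 81.6 CPM against 139, 92.8 and 104 CPM, a difference of 0.38 (edgeR adjusted p 0.217). Cdk6, the second partner, was at 363, 301 and 333 CPM against 355, 282 and 292 CPM, overlapping (difference -0.10, interval -0.45 to 0.25), and the sign turned with library size alone. Rb1, the brake on E2F that these kinases release, was at 49.4, 64.6 and 61.3 CPM against 34.7, 47.6 and 41.2 CPM, with no overlap and a difference of -0.50 (interval -0.90 to -0.11, edgeR adjusted p 0.121). Cdkn1a, the p53 target that inhibits CDKs, was at 193, 264 and 204 CPM against 183, 186 and 173 CPM, lower in all 3 SOX2LSL tumours, with an edgeR adjusted p of 0.28 and a sign that turned with library size alone.

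**Figure D4:**
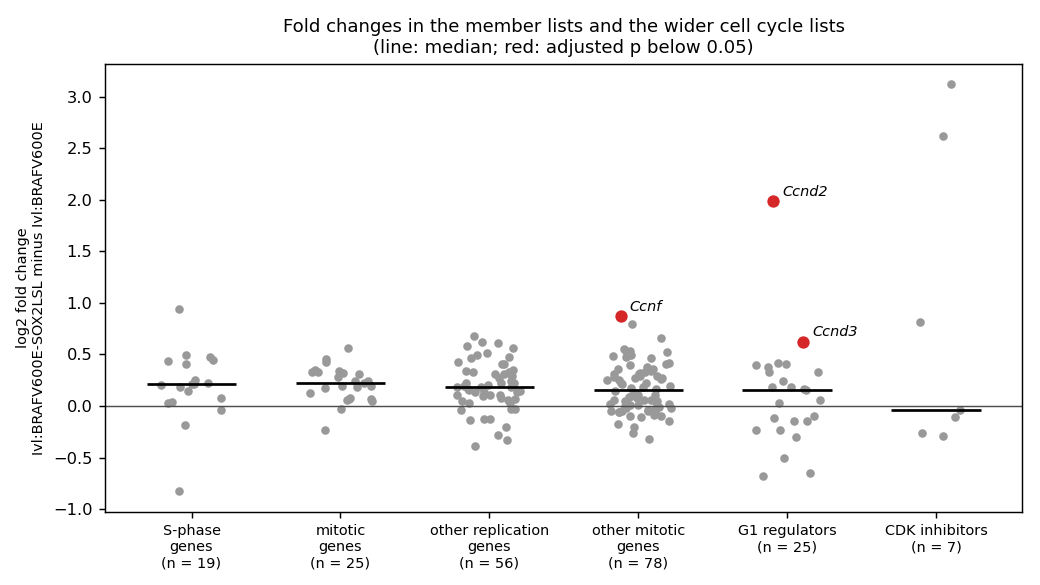
Log2 fold change, Ivl:BRAFV600E-SOX2LSL minus Ivl:BRAFV600E, of every gene in the S-phase, mitotic and wider cell cycle lists; each point is a gene, the line is the list median and red points passed an edgeR adjusted p of 0.05. The 3 red points are Ccnf, Ccnd2 and Ccnd3, and the medians of the 2 lists of S-phase and mitotic genes are 0.21 and 0.22.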

How the data were processed

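RNA was extracted from frozen tumours, and rRNA-depleted libraries were sequenced as paired-end reads. Per the labels, reads passed FastQC 0.11.8, Trim Galore, HISAT2 2.1.0 and featureCounts of Subread 1.6.3 on GRCm38. The deposited values are raw counts of read pairs per Ensembl gene, made by the authors with no scaling. Strand use in counting is not given in the sources used here. The labels list 4 Ivl:BRAFV600E and 3 Ivl:BRAFV600E-SOX2LSL samples. Of the count columns, 3 per genotype could be assigned by their names, 1 column was not used, and the fourth Ivl:BRAFV600E sample was not analysed here. Sex and reporter alleles came from the study's source data.

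Features with at least 5 counts in at least 1 of the 6 tumours were kept, as in the study. TMM scaling and edgeR 4.0.16 (quasi-likelihood test, genotype only, R 4.3.3) were fitted to all of them, with Benjamini-Hochberg adjustment over all and a threshold of 0.05. Standard errors were the log2 difference over the square root of F, and 95% intervals used the t quantile of the moderated degrees of freedom (median 7.22). CPM were computed from TMM library sizes, and log2 CPM with a prior count of 2. Alternatives were DESeq2 1.42.0, limma voom 3.58.1 with sample weights, other scalings and filters, sex as a covariate and leaving out each tumour. Scripts were tested on simulated data. P-values measure the spread among these tumours, which the labels give as separate samples.

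Exon lengths and positions are from GENCODE M21 (GRCm38), and 55154 features had a symbol. The length of a gene is that of all its annotated exons merged. Promoter sequences are from RefSeq (GRCm38.p6), with the first listed start per gene, and matched 35 of the 44 genes. Kif20a, Tpx2, Gins2, Mcm4, Ccne2, Aurkb, Ccna2, Foxm1 and Cdc25c had no entry. The genes shown were picked by hand for their motifs. The 44 genes, the wider lists and the marker lists were chosen with earlier results of these data known. Values in each tumour are given for 9 fixed genes, the 5 genes of each list with the smallest p, called genes and 5 further G1 regulators and inhibitors.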

Additional observations from a re-analysis of the deposited data

How the results depend on the processing

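Over all features the number called was 954 with edgeR, 3653 with DESeq2, 2142 with limma voom, 1759 with no filter on low counts, 228 with sex as a covariate, 1974 with library size alone (1695 higher and 279 lower, against 585 and 369) and 22 (without A) to 1575 (without D) when a tumour was left out. It was 50 without B, 179 without C, 202 without E and 412 without F. The number of S-phase genes called was 0 with edgeR, 3 with DESeq2, and 1 each with limma voom, no filter and library size alone. No mitotic gene was called except 2 with library size alone. The 3 calls in the wider lists became 13 with DESeq2, 5 with limma voom, 19 with library size alone, 0 with sex as a covariate, and 0 to 4 with a tumour left out. The list medians were 0.57 (S-phase) and 0.56 (mitotic) with library size alone. They stayed above 0 under every alternative run, at 0.11 to 0.34 and 0.06 to 0.34 in the planned ones. Among the genes with values in every tumour, the estimate reversed for Ccnd1 with limma voom (-0.39) and over tumours left out (-0.56 to 0.65), for Ccnb1 under upper-quartile scaling (-0.026) and over tumours left out (-0.10 to 0.20), and with library size alone for Mki67 (0.11), Cdk6 (0.26) and Cdkn1a (0.079). Of all 44 genes, 14 reversed under at least 1 alternative, 12 of them over tumours left out (9 without C) and 8 under upper-quartile scaling, and each of the 14 had an edgeR 95% interval that held 0. The cause was not tested in any of these. Library size alone was chosen after seeing the data.

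No paired analysis was possible because the count columns carry mouse names and no replicate number. With 3 tumours a group, the 44 genes' intervals had a median half-width of 0.45 on the log2 scale. These intervals are not adjusted for the number of features tested, whereas the calls are. Smaller differences were thus mostly not detectable here, and larger differences could also miss the adjusted threshold. Gins2 (0.94, edgeR adjusted p 0.0936) and E2f8 (-0.83, edgeR adjusted p 0.0682) were not called. The lowest count of any of these genes in a tumour was 51, and counting error was not separated from the spread among tumours.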
